A study of Mus musculus with 10 samples.

Results

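The Fc receptors and Fc receptor-like genes examined here were 8 genes, Fcgr1, Fcgr2b, Fcgr3, Fcgr4, Fcer1g, Fcgrt, Fcrl5 and Fcrls, out of 55421 genes in the count table. They were found by gene symbol, through the GRCm38 annotation of each Ensembl identifier, with no threshold on a measured value. The list itself was selected on results of these same libraries, the expression of these genes in the 4 groups, so their values and calls are given as a description, beside the share of all genes called in the same comparison. RNA sequencing measured transcripts in 2 myeloid cell types 15 days after mice had been implanted with MC17-51 fibrosarcoma. Both genotypes carried floxed alleles of Ptpn11, the gene of the phosphatase SHP-2. Control Shp2f/f mice had no Cre, and Shp2f/fLysMcre mice had Cre expressed from the lysozyme M promoter, which is active in monocytes, macrophages and neutrophils. Myeloid-derived suppressor cells (MDSC) were taken from the spleen with magnetic beads, and tumor-associated macrophages (TAM) were sorted from the tumor as CD45+CD11b+F4/80+Ly6G- cells. MDSC had 2 libraries per genotype and TAM had 3, from mice 8 to 12 weeks old. Each mouse gave both cell types according to the study, and whether animals were pooled was not stated. Nothing in the labels says that replicates came from separate animals, so p-values may measure technical spread alone.

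Fc receptors bind the constant part of antibodies and couple antibody-coated targets to immune cells. Fcgr1, Fcgr3 and Fcgr4 encode activating receptors for IgG, which signal through the ITAM motif of a shared partner, the Fc receptor gamma chain encoded by Fcer1g. Fcgr2b encodes the inhibitory IgG receptor, whose ITIM motif recruits phosphatases, mainly the lipid phosphatase SHIP-1. Fcgrt encodes FcRn, which pairs with beta-2-microglobulin and recycles IgG inside the cell. Fcrl5 encodes an Fc receptor-like protein best known from B cells, and Fcrls encodes a scavenger receptor-like relative known as a microglial marker. In macrophages the balance of activating and inhibitory receptors sets how strongly immune complexes trigger phagocytosis and cytokine release.

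The libraries held between 28844660 and 38222998 counts. The targeted gene Ptpn11 had 50.9 to 54.2 CPM, the count scaled to library size, in Shp2f/fLysMcre TAM against 120.9 to 125.2 in Shp2f/f TAM, and 79.8 to 94.8 against 99.2 to 113 in MDSC. Its log2 fold change was -1.24 (SE 0.04, edgeR adjusted p = 3.0e-09) in TAM. In MDSC it was -0.29 (SE 0.14, edgeR adjusted p = 0.36), so Ptpn11 was not called lower there. Lyz2, where the lysozyme M Cre sits, was between 9.38 and 47.1 CPM in the Shp2f/fLysMcre libraries and at 3437 CPM or more in the Shp2f/f libraries. Loss of SHP-2, presence of Cre and low Lyz2 therefore go together in Shp2f/fLysMcre and cannot be told apart here. The female-specific RNA Xist moved with genotype. It was at 0.0290 CPM in both Shp2f/f MDSC libraries and at 119 to 132 CPM in Shp2f/fLysMcre MDSC, and at 4.82 to 18.1 against 209 to 372 CPM in TAM. The Y-linked Ddx3y was between 22.3 and 85.6 CPM in all 10 libraries, so the sex makeup of the libraries and their genotype cannot be told apart. MDSC were described as Ly6G+ by the study, while the MDSC libraries held 8.92 to 33.2 CPM of the neutrophil marker Ly6g and 1031 to 1442 CPM of the monocyte and macrophage receptor gene Csf1r. One library stood apart, since MDSC Shp2f/fLysMcre replicate 2 held 332 CPM over the 4 fibroblast genes Col1a1, Col1a2, Dcn and Pdgfra, against 2.85 to 19.5 CPM in the other MDSC libraries. In bulk RNA, fewer cells of a type and less RNA per cell cannot be told apart.

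Of the 8 genes, 4 lie close together on chromosome 1 of GRCm38. These are Fcgr2b (170958617 to 170976547), Fcgr4 (171018920 to 171029761), Fcgr3 (171051174 to 171064935) and Fcer1g (171229572 to 171234365). Fcgr1 (96282909 to 96293969), Fcrl5 (87435773 to 87500678) and Fcrls (87250758 to 87263738) lie on chromosome 3, and Fcgrt (45092990 to 45103851) lies on chromosome 7. Fcgr2b and Fcgr3 are related genes and share sequence. Of the 1627 windows of 42 bases, the read length, in the Fcgr3 transcripts, 11.7% also occurred in Fcgr2b. Of the 3676 windows of Fcgr2b, 5.17% occurred in Fcgr3 and 11.3% in any other gene, and the other 6 genes shared no such window with any gene. The longest identical run was 129 bases in the coding sequence of both genes, and it is shown because read pairs inside it fit both. It spans an exon junction between chr1:170966674-170968081 in Fcgr2b and chr1:171054167-171057792 in Fcgr3, both on the minus strand.
Fcgr2b and Fcgr3 shared run: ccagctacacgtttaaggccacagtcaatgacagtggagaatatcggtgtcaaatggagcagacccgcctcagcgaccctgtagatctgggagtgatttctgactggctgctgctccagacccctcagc
How the authors counted reads with several matches was not stated, so the counts of Fcgr2b and Fcgr3 are uncertain by the reads of such windows. Exons of Fcgr2b also overlapped 155 bases of the antisense gene Gm38204, which had 3 to 9 counts per library.

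First, levels were compared among the 8 genes, as TPM, which scales counts by exon length before the library size. Fcer1g had the highest TPM in all 4 groups. It reached 2888 ± 183 TPM (SD, n = 2) in Shp2f/f MDSC and 2581 ± 73.1 TPM (SD, n = 3) in Shp2f/f TAM. Fcgr3 was second in all 4 groups, with 801 ± 43.3 TPM (SD, n = 2) in Shp2f/f MDSC and 884 ± 27.3 TPM (SD, n = 3) in Shp2f/f TAM. In Shp2f/f MDSC the order continued with Fcgr4 at 348 ± 22.7, Fcgr2b at 302 ± 11.8, Fcgr1 at 172 ± 9.85 and Fcgrt at 27.2 ± 3.69 TPM (SD, n = 2). Fcrl5 at 0.406 ± 0.325 and Fcrls at 0.245 ± 0.0819 TPM came last and overlapped each other. In Shp2f/f TAM, Fcgr1 at 659 ± 27.2 and Fcgr2b at 618 ± 12.5 TPM (SD, n = 3) came after Fcgr3, and their libraries overlapped. Fcgr4 at 405 ± 12.4, Fcrls at 176 ± 4.67, Fcgrt at 162 ± 1.89 and Fcrl5 at 2.45 ± 0.0821 TPM followed, each without overlap with its neighbor. In Shp2f/fLysMcre TAM the order of Fcgr1 and Fcgr2b was the other way around, with Fcgr2b at 943 ± 13.5 and Fcgr1 at 776 ± 25.1 TPM (SD, n = 3) and no overlap. In Shp2f/fLysMcre MDSC the first 6 genes kept the order of Shp2f/f MDSC.

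The question of where these genes are expressed with SHP-2 intact was addressed by comparing Shp2f/f TAM with Shp2f/f MDSC. Cell type, organ and isolation method cannot be told apart in this comparison. The fit used all 10 libraries, with a shared estimate of spread for both cell types. It treated the libraries as independent, because the labels do not say which of them share a mouse. Of the 8 genes, 6 were called at an adjusted p under 0.05 in edgeR, where 69.6% of all genes were called, 35.1% higher and 34.6% lower in TAM. The level was higher in TAM for Fcgr1, Fcgr2b, Fcgrt, Fcrl5 and Fcrls and lower for Fcer1g. The difference was greatest for Fcrls, which had 5 and 8 counts in the Shp2f/f MDSC libraries and 4026 to 4818 in Shp2f/f TAM, a log2 difference of 9.30 (SE 0.58). Fcrl5, with 25 and 7 counts in Shp2f/f MDSC replicates 1 and 2, differed by 2.43 (SE 0.41) on the log2 scale. That value turned on single libraries, and it was 3.61 without MDSC Shp2f/f replicate 1 and 1.78 without replicate 2. Fcgrt differed by 2.41 (SE 0.21), the high-affinity receptor gene Fcgr1 by 1.78 (SE 0.07) and Fcgr2b by 0.87 (SE 0.06) on the log2 scale. Fcer1g was lower in TAM by a log2 difference of -0.32 (SE 0.09, edgeR adjusted p = 0.0071), which did not pass without MDSC Shp2f/f replicate 2 (edgeR adjusted p = 0.077). Fcgr3 at -0.02 (SE 0.07) and Fcgr4 at 0.06 (SE 0.07) on the log2 scale were not called.

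**Figure D1:**
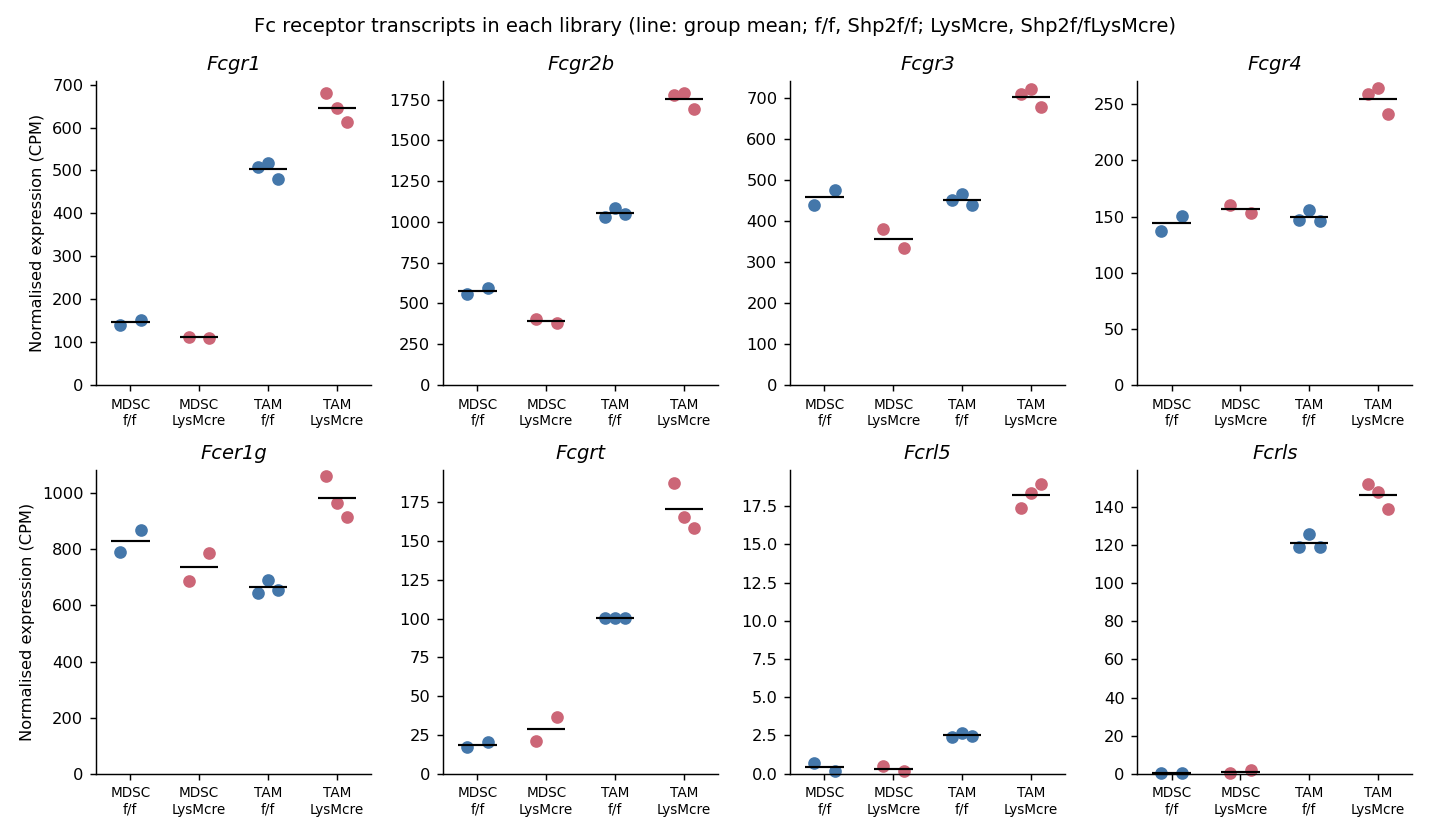
Normalised expression in CPM of each of the 8 genes in every library, with points for libraries, a line for the group mean and a separate axis from 0 for each gene. In TAM every Shp2f/fLysMcre library sat above every Shp2f/f library for all 8 genes, and in MDSC the Shp2f/fLysMcre libraries sat below the Shp2f/f libraries for Fcgr1, Fcgr2b, Fcgr3 and Fcer1g.

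Next, the genotypes were compared within TAM, to describe how Fc receptor transcripts in the tumor differed with genotype. All 8 genes had higher expression in Shp2f/fLysMcre TAM and were called by edgeR. Over all 14446 genes tested in TAM, 50.2% were called and 23.9% were called higher. The genotypes did not overlap for 8 of 8 genes, against 58.2% of all tested genes. The median log2 fold change of the 8 genes was 0.65, and that of all tested genes was -0.01. When libraries were scaled by total counts the median of all genes moved to -0.11 and the called genes split into 2342 higher and 5227 lower, in place of 3452 higher and 3805 lower, while all 8 genes stayed higher and called.

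Among the activating receptors, the low-affinity receptor gene Fcgr3 had 452, 465 and 438 CPM in Shp2f/f TAM and 710.1, 722 and 679.7 CPM in Shp2f/fLysMcre TAM. The change was 1.52-fold, a log2 fold change of 0.60 (SE 0.04, edgeR adjusted p = 3.0e-07). Fcgr3 is also expressed by NK cells, whose 5 marker genes summed to 8.02 to 9.75 CPM in Shp2f/f and 2.495 to 3.35 CPM in Shp2f/fLysMcre TAM, with 5 of 5 called lower and none at 0, and the part of these cells in the value of Fcgr3 was not tested. Fcgr4, which encodes the receptor that binds IgG2a and IgG2b in the mouse, had 147, 156 and 146 CPM in Shp2f/f TAM and 259, 264 and 241 CPM in Shp2f/fLysMcre TAM. Its log2 fold change was 0.73 (SE 0.04, edgeR adjusted p = 2.1e-07). Fcgr1 had 508, 518 and 481 CPM in Shp2f/f TAM and 679.9, 646 and 613 CPM in Shp2f/fLysMcre TAM. Its rise was the smallest of the 3 activating receptors, 0.33 on the log2 scale (SE 0.04, edgeR adjusted p = 1.0e-04). The shared chain gene Fcer1g had 645, 692 and 657 CPM in Shp2f/f TAM and 1063, 965 and 916 CPM in Shp2f/fLysMcre TAM. On the log2 scale it rose by 0.53 (SE 0.05, edgeR adjusted p = 8.1e-06).

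The inhibitory receptor gene Fcgr2b had 1028, 1087 and 1046 CPM in Shp2f/f TAM and 1780.5, 1793 and 1695 CPM in Shp2f/fLysMcre TAM. It rose 1.63-fold, a log2 fold change of 0.70 (SE 0.03, edgeR adjusted p = 5.0e-08). The FcRn gene Fcgrt had 100.2, 100.3 and 100.2 CPM in Shp2f/f TAM and 187, 166 and 159 CPM in Shp2f/fLysMcre TAM, a log2 fold change of 0.73 (SE 0.06, edgeR adjusted p = 1.3e-06). B2m, which encodes its partner beta-2-microglobulin, rose by 0.36 (SE 0.04) on the log2 scale in the same test. Endothelial cells also express Fcgr2b and Fcgrt, and the 4 endothelial markers summed to 69.6 to 74.4 CPM in Shp2f/f and 112 to 121 CPM in Shp2f/fLysMcre TAM, with 3 of 3 tested markers called higher and none at 0. Their part in these results was not tested. Macrophage markers moved with all 8 genes as well. The 8 macrophage markers summed to 7412 to 7772 CPM in Shp2f/f and 10944 to 11867 CPM in Shp2f/fLysMcre TAM, and 8 of 8 were called higher, which was not tested as a cause.

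Fcrl5 showed the largest rise of the 8 genes in TAM. It had 82, 101 and 91 counts, or 2.43, 2.63 and 2.48 CPM, in Shp2f/f TAM. In Shp2f/fLysMcre TAM it had 538, 618 and 515 counts, or 17.4, 18.4 and 18.9 CPM. The change was 7.05-fold, a log2 fold change of 2.82 (SE 0.08, edgeR adjusted p = 2.2e-09). The 7 B cell markers summed to 21.8 to 22.8 CPM in Shp2f/f and 51.3 to 56.7 CPM in Shp2f/fLysMcre TAM, with 2 of 4 tested markers called higher and none at 0 throughout a group. Most of that sum was Cd22, which rose by 1.23 on the log2 scale to between 41.1 and 45.1 CPM, and Cd79b, which rose by 1.57 on the log2 scale to between 9.78 and 10.5 CPM. The 10 plasma cell and immunoglobulin markers summed to 10.99 to 12.46 CPM in Shp2f/f and 23.6 to 33.9 CPM in Shp2f/fLysMcre TAM, with 3 of 4 tested markers, Igha, Ighm and Igkc, called higher and none at 0 throughout a group. The part of B cells and plasma cells in the rise of Fcrl5 was not tested. Fcrls had 119, 126 and 119 CPM in Shp2f/f TAM and 152, 148 and 139 CPM in Shp2f/fLysMcre TAM, the smallest change of the 8 genes. Its log2 fold change of 0.24 (SE 0.04, edgeR adjusted p = 7.1e-04) did not pass when all 10 libraries shared one fit (edgeR adjusted p = 0.49).

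Because the 8 genes rose together in TAM, their promoters were searched for letters bound by families of myeloid regulators. Each window ran from 250 bases before to 50 bases after a listed start of the gene (RefSeq, GRCm38.p6). For Fcgr3, 2 windows were listed and only the first was searched, chr1:171059354-171059653. That window lies inside the span of Fcgr3 given above, so its lack of a match does not describe the outer start of the gene. The window listed for Fcgr2b, chr1:170976022-170976321, also lies inside the span of its gene. The same limit holds for its lack of a match. The letters AGGAAGT, a specific form of the ETS site, were read on both strands. They occurred in the promoters of Fcgr1, Fcgr4, Fcrl5 and Fcrls, 4 of 8, and in 9.6% of 27025 promoters. Other forms of the ETS site were not searched, so a promoter without these letters may still hold such a site. The GAS element TTCNNNGAA, the letters bound by STAT factors, occurred in the promoter of Fcgr1 alone among the 8 genes and in 8.5% of all promoters. The promoters of Fcgr1, Fcgr4 and Fcrl5 are shown for their matches, in capitals, and that of Fcgr2b because it is the gene of the inhibitory receptor. An ETS match reads ACTTCCT where it lies on the other strand.
Fcgr1 promoter, chr3:96293920-96294219, minus strand: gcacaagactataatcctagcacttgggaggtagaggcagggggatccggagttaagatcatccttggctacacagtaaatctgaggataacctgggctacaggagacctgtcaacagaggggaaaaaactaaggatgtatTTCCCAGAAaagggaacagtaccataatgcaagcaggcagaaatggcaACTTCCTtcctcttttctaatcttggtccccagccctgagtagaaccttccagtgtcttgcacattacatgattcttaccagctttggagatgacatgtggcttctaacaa
Fcgr4 promoter, chr1:171018676-171018975, plus strand: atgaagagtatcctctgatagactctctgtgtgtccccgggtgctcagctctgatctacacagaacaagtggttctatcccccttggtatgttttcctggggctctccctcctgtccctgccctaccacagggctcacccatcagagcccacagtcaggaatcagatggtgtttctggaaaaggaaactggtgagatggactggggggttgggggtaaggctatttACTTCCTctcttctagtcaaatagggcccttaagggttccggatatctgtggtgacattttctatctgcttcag
Fcrl5 promoter, chr3:87435532-87435831, plus strand: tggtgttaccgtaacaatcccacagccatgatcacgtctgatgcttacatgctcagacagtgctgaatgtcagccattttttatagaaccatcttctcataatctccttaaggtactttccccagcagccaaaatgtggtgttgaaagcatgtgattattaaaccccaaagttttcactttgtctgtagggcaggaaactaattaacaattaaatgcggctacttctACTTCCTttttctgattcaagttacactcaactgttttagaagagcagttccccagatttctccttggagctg
Fcgr2b promoter, chr1:170976022-170976321, minus strand: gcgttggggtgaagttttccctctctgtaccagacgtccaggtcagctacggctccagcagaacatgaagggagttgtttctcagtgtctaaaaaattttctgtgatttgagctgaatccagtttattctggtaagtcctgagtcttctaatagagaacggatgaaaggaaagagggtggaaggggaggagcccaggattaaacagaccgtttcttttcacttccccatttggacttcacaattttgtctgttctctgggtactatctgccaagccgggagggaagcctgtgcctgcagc
The match is to letters only, and the motifs were chosen after the sequences had been seen. The promoters with an ETS match belonged to the genes with the largest (Fcrl5), the smallest (Fcrls) and intermediate changes in TAM.

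In MDSC the same comparison gave no call. Of the 8 genes, 7 were tested, and 0 of 7 were called by edgeR, where 4.28% of all 14806 tested genes were called. At an unadjusted p under 0.05 there were 3 of 7, against 19.3% of all genes, and DESeq2 called 2 of 7, Fcgr1 and Fcgr2b, against 8.48% of all genes. The genotypes did not overlap for 6 of 7 genes, against 49.1% of all tested genes. With 2 libraries per genotype, the biological coefficient of variation was 0.189, compared with 0.0595 in TAM.

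Fcgr2b had 559 and 593 CPM in Shp2f/f MDSC and 406 and 380.0 CPM in Shp2f/fLysMcre MDSC, a log2 difference of -0.56 (SE 0.12, edgeR adjusted p = 0.071). Fcgr1 had 140.0 and 153 CPM in Shp2f/f MDSC and 112 and 109 CPM in Shp2f/fLysMcre MDSC, a log2 difference of -0.41 (SE 0.11, edgeR adjusted p = 0.13). Fcgr3 had 439 and 476 CPM in Shp2f/f MDSC and 381 and 334 CPM in Shp2f/fLysMcre MDSC, a log2 difference of -0.36 (SE 0.13, edgeR adjusted p = 0.22). For these 3 genes both Shp2f/fLysMcre libraries lay below both Shp2f/f libraries. The calls turned on single libraries. Without Shp2f/fLysMcre replicate 2, the library with fibroblast transcripts, Fcgr2b (edgeR adjusted p = 0.0024) and Fcgr1 (edgeR adjusted p = 0.019) were called lower. Without Shp2f/fLysMcre replicate 1, Fcgr2b (edgeR adjusted p = 0.010), Fcgr1 (edgeR adjusted p = 0.024) and Fcgr3 (edgeR adjusted p = 0.023) were called lower, and Fcgrt (edgeR adjusted p = 0.0079) and Fcrls were called higher, 5 of 8 tested. Each of these fits left 1 Shp2f/fLysMcre library, which was assumed to vary like the Shp2f/f pair, and the share of all genes called was 18.0% without replicate 2 and 27.2% without replicate 1.

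The genotypes did not overlap for Fcer1g, Fcgr4 and Fcgrt either, though by narrower margins. Fcer1g had 792 and 870.4 CPM in Shp2f/f MDSC and 688 and 786 CPM in Shp2f/fLysMcre MDSC, a log2 difference of -0.18 (SE 0.13, edgeR adjusted p = 0.54). Fcgr4 had 137 and 151 CPM in Shp2f/f MDSC and 160.1 and 154 CPM in Shp2f/fLysMcre MDSC, a log2 difference of 0.12 (SE 0.12, edgeR adjusted p = 0.67). It was the only activating receptor gene of the 3 with a positive value in MDSC. Fcgrt had 17.0 and 20.7 CPM in Shp2f/f MDSC, and 20.8 and 36.3 CPM in Shp2f/fLysMcre replicates 1 and 2. Its log2 difference was 0.59 (SE 0.27, edgeR adjusted p = 0.32), and it was 0.15 without Shp2f/fLysMcre replicate 2, where it was not called, and 0.91 without replicate 1, where it was. Fcrl5 had 25 and 7 counts in Shp2f/f MDSC and 18 and 7 in Shp2f/fLysMcre MDSC, and no difference was detectable at this depth. Fcrls had 8 and 5 counts in Shp2f/f MDSC and 5 and 83 in Shp2f/fLysMcre replicates 1 and 2, and it was not tested because it fell under the low-count filter. The high values of Fcgrt and Fcrls were both in the library that held 332 CPM of fibroblast transcripts, and the part of those cells in the result was not tested.

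Cell type markers moved with genotype in MDSC too. The 8 neutrophil markers, mostly S100a8 and S100a9, summed to 8570 to 8644 CPM in Shp2f/f MDSC and 20263 to 23584 CPM in Shp2f/fLysMcre MDSC, with 4 of 8 called higher. The 5 monocyte markers summed to 4717 to 4793 CPM in Shp2f/f and 3010 to 3809 CPM in Shp2f/fLysMcre MDSC, with 0 of 5 called by edgeR, 3 at an unadjusted p under 0.05 and 3 called lower by DESeq2. The 8 macrophage markers summed to 2611 to 2693 CPM in Shp2f/f and 1868 to 2094 CPM in Shp2f/fLysMcre MDSC, and 1 of 8 was called lower. No marker of these lists was at 0, and the part of the cell mixture in the values of Fcgr1, Fcgr2b and Fcgr3 was not tested.

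**Figure D2:**
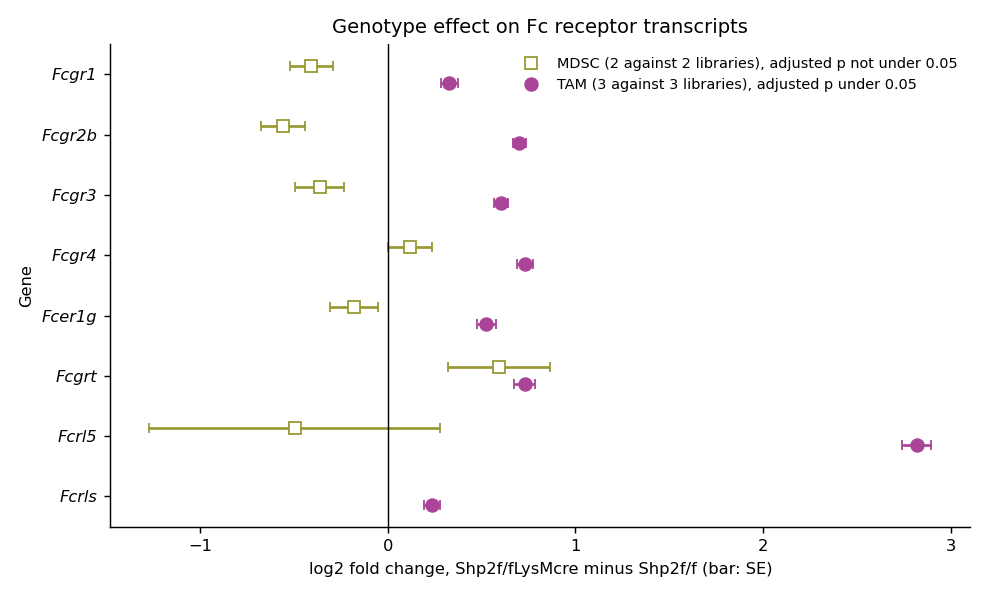
Log2 fold change of Shp2f/fLysMcre over Shp2f/f for each gene in MDSC (squares) and TAM (circles), with the SE as bars, filled where the edgeR adjusted p was under 0.05. All 8 TAM values lie above 0, from 0.24 to 2.82, and the MDSC values of Fcgr1, Fcgr2b, Fcgr3, Fcer1g and Fcrl5 lie below it. Fcrls has no MDSC value because it was not tested there.

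Whether the genotype effect differed between the cell types was tested directly, as the TAM effect minus the MDSC effect over all 10 libraries. The libraries were again treated as independent, though MDSC and TAM libraries may share mice. Of the 8 genes, 6 were called, and all 6 in the direction of a larger value in TAM. Over all 16581 genes tested, 24.9% were called and 12.2% were called in that direction. With total-count scaling the median of all genes was -0.18 and the calls over all genes split into 1234 with the larger value in TAM and 3132 with the smaller, in place of 2030 and 2102. The difference on the log2 scale was 1.29 (SE 0.09) for Fcgr2b, 0.997 (SE 0.10) for Fcgr3, 0.76 (SE 0.10) for Fcgr1, 0.74 (SE 0.12) for Fcer1g and 0.64 (SE 0.10) for Fcgr4. For Fcrl5, with few counts in MDSC, the difference was 3.35 (SE 0.61, edgeR adjusted p = 0.0034), and without MDSC Shp2f/f replicate 1 it was 2.17 and did not pass (edgeR adjusted p = 0.060). Fcgrt at 0.16 (SE 0.27, edgeR adjusted p = 0.71) and Fcrls at -2.30 (SE 1.04, edgeR adjusted p = 0.14) were not called. Without MDSC Shp2f/fLysMcre replicate 2, the difference for Fcgrt was 0.62 (edgeR adjusted p = 0.011) and that for Fcrls was 0.73 (edgeR adjusted p = 0.50). Without MDSC Shp2f/fLysMcre replicate 1, the difference for Fcgrt was -0.18 and that for Fcrls was -3.16.

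The balance of activating and inhibitory receptors was then described as the summed TPM of Fcgr1, Fcgr3 and Fcgr4 over the TPM of Fcgr2b, with no test because the genes were chosen with results known. In MDSC the ratio was 4.31 and 4.42 in the Shp2f/f libraries and 5.57 and 5.44 in the Shp2f/fLysMcre libraries. In TAM it was 3.23, 3.15 and 3.07 in Shp2f/f and 2.85, 2.83 and 2.80 in Shp2f/fLysMcre. The Shp2f/fLysMcre libraries thus had a higher ratio in MDSC and a lower ratio in TAM, with no overlap between genotypes in either cell type. Group means were 4.37 ± 0.0796 and 5.50 ± 0.0920 in MDSC (SD, n = 2) and 3.15 ± 0.0806 and 2.83 ± 0.0265 in TAM (SD, n = 3). The direction in each cell type was the same without length scaling, without Fcgr4 and with the length of the longest coding transcript. The size of the ratio depends on those choices, and on how reads shared by Fcgr2b and Fcgr3 were counted.

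Within the activating receptors, the share of Fcgr4 was higher in Shp2f/fLysMcre in both cell types. It was 26.2% to 26.5% of their summed TPM in Shp2f/f MDSC and 32.7% to 34.3% in Shp2f/fLysMcre MDSC, and 20.4% to 21.0% and 23.4% to 24.0% in TAM. The share of Fcgr1 was 33.5% to 34.2% in Shp2f/f TAM and 28.5% to 29.9% in Shp2f/fLysMcre TAM. The gamma chain gene was set against the receptors that use it in the same way. Fcer1g over the summed TPM of Fcgr1, Fcgr3 and Fcgr4 was 1.29, 1.34 and 1.35 in Shp2f/f TAM and 1.39, 1.26 and 1.28 in Shp2f/fLysMcre TAM, and the genotypes overlapped. In MDSC it was 2.18 and 2.20 in Shp2f/f and 2.02 and 2.52 in Shp2f/fLysMcre, and the genotypes overlapped again.

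**Figure D3:**
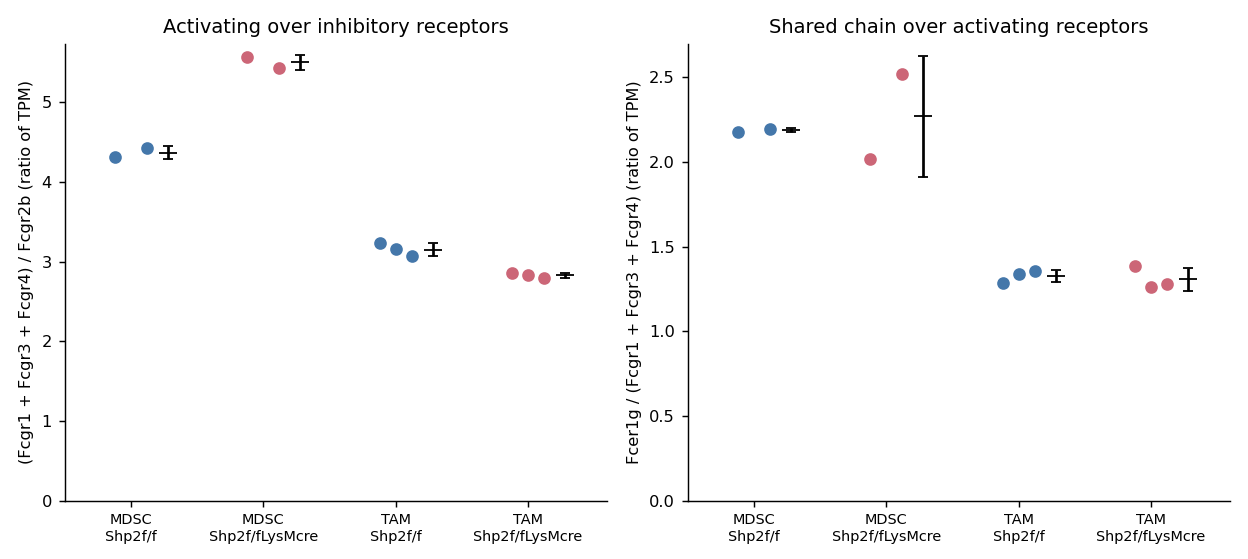
Ratio of TPM per library for the activating receptors over Fcgr2b (left) and for Fcer1g over the activating receptors (right), with points for libraries and the mean and SD of each group beside them. On the left the Shp2f/fLysMcre points lie above the Shp2f/f points in MDSC, at 5.44 and 5.57, and below them in TAM, at 2.80 to 2.85. On the right the genotypes overlap in both cell types.

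The machinery around these receptors was read from lists of Fc pathway genes. In TAM, 37 of 49 tested genes were called by edgeR, 28 higher and 9 lower, beside the 50.2% called over all genes. Of the 18 ITAM adaptors and proximal kinases, 10 were called higher and 4 lower. The exchange factor gene Vav3 rose by 0.59 on the log2 scale. Syk, which encodes the kinase that binds the phosphorylated ITAM, rose by 0.21 (SE 0.04) on the log2 scale. Src itself fell from 155 ± 3.44 to 94.5 ± 5.04 CPM (SD, n = 3), and Lat, an adaptor best known from T cells, fell by 1.33 on the log2 scale. The 4 T cell markers fell with Lat, from 6.39 to 7.45 CPM in Shp2f/f down to 2.79 to 3.42 CPM in Shp2f/fLysMcre TAM in sum, with 4 of 4 called lower and none at 0, and their part in the fall of Lat was not tested.

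Of the 8 ITIM effectors, 4 were called higher and 1 lower in TAM. The 1 that fell was the deleted gene Ptpn11, with a log2 fold change of -1.24. Inpp5d, which encodes SHIP-1, the phosphatase recruited by the inhibitory receptor, rose by 0.23 (SE 0.04) on the log2 scale. Ptpn6, which encodes the related phosphatase SHP-1, rose by 0.26 (SE 0.04) on the log2 scale. Of the 12 genes of the phagocytic cup, 9 were called higher and 0 lower by edgeR, with 0 lower at an unadjusted p under 0.05 and 0 lower by DESeq2. Their median change in TAM was 0.15 on the log2 scale, beside 0.65 for the 8 Fc receptor and Fc receptor-like genes, and the ranges overlapped. Coro1a, an actin-binding protein of leukocytes, rose by 0.43, Apbb1ip by 0.32, Dock2 by 0.27 and Rac2 by 0.23 on the log2 scale.

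Among the other receptors that signal through the Fcer1g chain, the changes in TAM went in both directions. Of 6 tested, 3 were called higher and 3 lower. The C-type lectin genes Clec4n, at 276 ± 6.75 and 466 ± 21.4 CPM (SD, n = 3), and Clec4d, at 262 ± 12.3 and 396 ± 14.5 CPM (SD, n = 3), rose in Shp2f/fLysMcre TAM. The study had named Clec4n, Clec4d and Clec4e from these libraries, so their direction is not independent evidence. Oscar, which encodes a collagen receptor of osteoclasts and myeloid cells, fell from 17.8 ± 0.535 to 4.87 ± 0.732 CPM (SD, n = 3). Ncr1, a receptor of NK cells, fell from 0.527 ± 0.0837 to 0.122 ± 0.0297 CPM (SD, n = 3). Of 4 tested genes among the other Fc receptors, the cytosolic antibody receptor gene Trim21 rose by 0.44 and Fcrlb fell by 0.17 on the log2 scale.

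In MDSC, 2 of 53 tested pathway genes were called by edgeR, beside the 4.28% called over all genes. Fcmr, the receptor for IgM of B cells, was at 2.26 ± 0.870 CPM in Shp2f/f and 0.387 ± 0.126 CPM in Shp2f/fLysMcre MDSC (SD, n = 2), a log2 fold change of -2.54. The 7 B cell markers summed to 53.3 to 64.0 CPM in Shp2f/f and 54.2 to 54.4 CPM in Shp2f/fLysMcre MDSC, with 2 of 7 called lower and none at 0. Their log2 fold changes ran from -2.83 for Pax5, which was called, to 1.03 for Blk, which was not. Ms4a2, the beta chain of the IgE receptor of mast cells and basophils, rose from 1.06 ± 0.0164 to 3.12 ± 0.154 CPM (SD, n = 2). The 6 mast cell and basophil markers, which include Ms4a2, summed to 82.5 to 100.02 CPM in Shp2f/f and 152 to 171 CPM in Shp2f/fLysMcre MDSC, with 2 of 6 called higher and none at 0. The part of B cells and of mast cells or basophils in these results was not tested. For 0 of the 18 ITAM genes, 0 of the 8 ITIM effectors and 0 of the 12 phagocytic genes was a call made by edgeR, and 3, 1 and 2 of them had an unadjusted p under 0.05. DESeq2 called 1, 0 and 0 of them, and the 1 was Lat2.

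**Figure D4:**
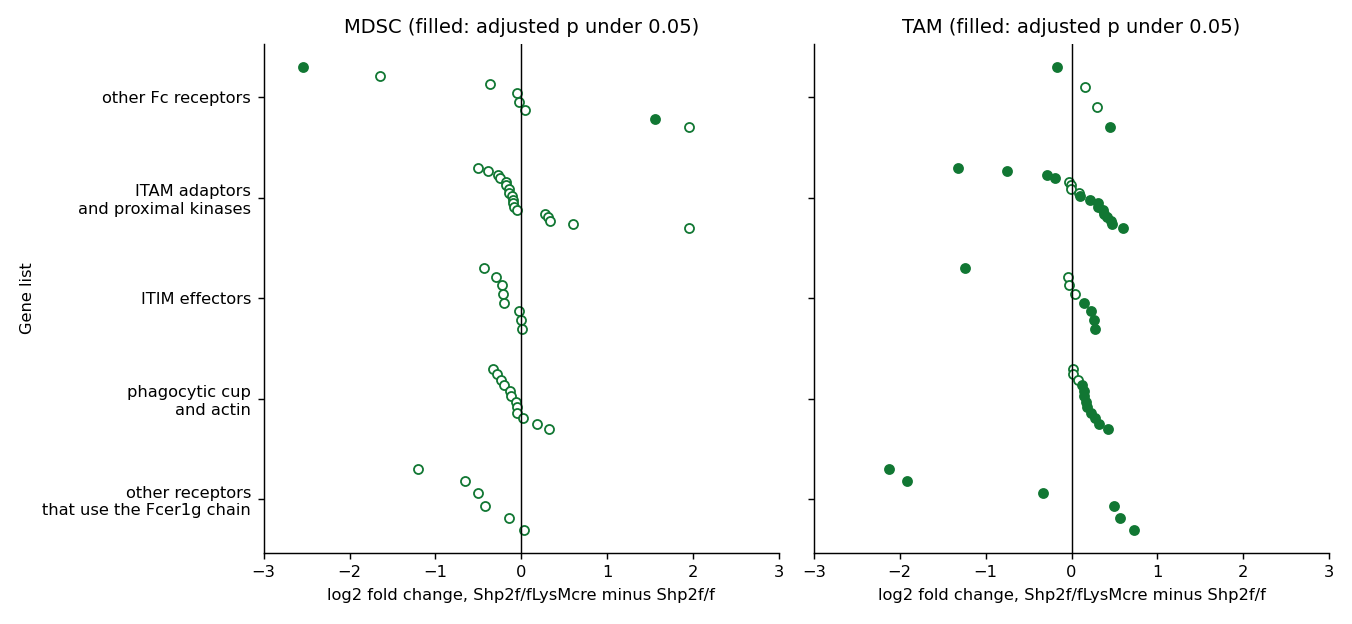
Log2 fold change of Shp2f/fLysMcre over Shp2f/f for the tested genes of 5 Fc pathway lists in MDSC (left) and TAM (right), 1 point per gene, filled where the edgeR adjusted p was under 0.05. In MDSC 2 points are filled, Fcmr at -2.54 and Ms4a2 at 1.55, and in TAM most points are filled, from Ncr1 at -2.13 to Clec4n at 0.72.

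The genes with the most similar profiles over the 10 libraries were listed for the 7 members whose mean reached 10 CPM. They were Ctsl and Plod1 for Fcgr1, Ms4a6d for Fcgr2b, Ms4a4a and Zfp513 for Fcgr3, Gltp and Wbp2 for Fcgr4, Jund and Ier5 for Fcer1g, Eva1b and Hpgds for Fcgrt, and Pdpn and Lpar1 for Fcrls. The measure of likeness was the correlation of log2 CPM, and its largest part in most genes is the difference between TAM and MDSC that the libraries share.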

How the data were processed

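Per the labels and the study's methods, poly(A) RNA was made into stranded libraries and sequenced as paired reads of 42 bases. The authors trimmed reads with cutadapt 2.5, aligned them with STAR 2.7.3a to GRCm38 and deposited raw counts per Ensembl gene from featureCounts (Subread 1.6.2). The strand setting is not given in the sources used here. The deposited table of normalized values was not used. Symbols, coordinates and lengths came from GENCODE for GRCm38, which matched 99.67% of identifiers.

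Genes passed filterByExpr (minimum count 10), libraries were scaled by TMM, and the edgeR 4.0.16 quasi-likelihood F test (R 4.3.3) was fitted to all genes, in 4 MDSC libraries, in 6 TAM libraries and in all 10, with Benjamini-Hochberg adjustment and calls at 0.05. CPM used TMM over all 10 libraries. TPM used exon union lengths. The fits were run on simulated counts with the same spread for every gene, as a check of the code only. That simulation does not bear on the calls made here. Members, pathway lists and 12 marker lists were chosen with earlier results of these data known. Named pathway genes were the called genes with the largest absolute log2 fold change, at most 4 per list, and those whose role the text needed. Some genes that these rules name are not reported here. Alternatives were DESeq2 1.42.0, limma 3.58.1 voom, other scalings, filters and thresholds, a replicate block, one shared fit, and leaving out each library.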

Additional observations from a re-analysis of the deposited data

Results flagged for a closer look

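The genotype effect differed between TAM and MDSC for 6 of the 8 genes, by the edgeR interaction test over all 10 libraries. Over all genes tested, 24.9% were called, and both cell types shared an estimate of spread. That test treated the libraries as independent, though MDSC and TAM libraries may share mice. For Fcgr2b the TAM effect exceeded the MDSC effect by 1.29 on the log2 scale, with 0.70 in TAM and -0.56 in MDSC. For Fcgr3 it was 0.997, with 0.60 and -0.36. For Fcgr1 it was 0.76, with 0.33 and -0.41. For Fcer1g it was 0.74, with 0.53 and -0.18. For Fcgr4 it was 0.64, with 0.73 and 0.12. For Fcrl5 it was 3.35, with 2.82 and -0.49, on 7 to 25 counts per MDSC library. For Fcgr1, Fcgr2b, Fcgr3 and Fcer1g each Shp2f/fLysMcre library lay above all Shp2f/f libraries in TAM and below them in MDSC. Of all tested genes, 58.2% in TAM and 49.1% in MDSC had no overlap between genotypes, in either direction. The share of all genes without overlap in both cell types and with opposite directions was not counted. Groups held 2 or 3 libraries, too few to test a single library as an outlier.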

How the results depend on the processing

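The 8 calls in TAM were kept under every alternative except one fit of all 10 libraries, which lost Fcrls, and the direction of all 8 held throughout. In MDSC the count of members called, 0, was 2 with DESeq2, 3 in one fit of all 10 libraries, 3 with a replicate block (Fcgr1, Fcgr2b and Fcgrt) and 0 to 5 when 1 library was left out. Over all genes in MDSC, 633 calls became 1256 with DESeq2, 2674 with the block, 2666 in one fit, 130 with no low-count filter, 3 at an adjusted p under 0.01, 1 without either Shp2f/f library, 2729 without Shp2f/fLysMcre replicate 2 and 4406 without replicate 1. In TAM 7257 became 4837 in one fit, and in the interaction 4132 became 2220 at an adjusted p under 0.01 and 2446 to 7023 with 1 library left out. The MDSC pathway count, 2, was 4 with DESeq2, 9 with the block, 9 in one fit, 1 with total-count scaling, 0 with no filter, 0 at an adjusted p under 0.01 and 0 to 20 when 1 library was left out. The cause was not tested. Same-numbered libraries correlated at 0.28 in MDSC, with only 2 pairs, and at -0.15, 0.09 and 0.02 in TAM, so the block rests on numbers that were not shown to pair. In the interaction the block called Fcrls at -2.23.

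Signs turned only for differences that were not called. These were Fcrl5 in MDSC (-1.43 to 0.70 when 1 library was left out, with 0.70 without Shp2f/f replicate 1 and 0.08 without Shp2f/fLysMcre replicate 2), the interaction for Fcgrt (-0.022 with total-count scaling, -0.18 to 0.62 with 1 library left out) and for Fcrls (-3.16 to 0.73), and between cell types Fcgr3 (-0.077 to 0.036) and Fcgr4 (-0.012 to 0.12).

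The activating to inhibitory ratio in Shp2f/f and Shp2f/fLysMcre was 1.30 and 1.59 in MDSC and 1.05 and 0.914 in TAM without length scaling. It was 3.22 and 3.66 in MDSC and 2.497 and 2.16 in TAM without Fcgr4. With the longest coding transcript, an alternative chosen after seeing the data, it was 3.14 and 3.90 in MDSC and 2.18 and 1.97 in TAM. With 2 and 3 libraries per group, depth limits Fcrl5 and Fcrls in MDSC, where counts were mostly under 30.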

Other observations

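In the test of the difference between TAM and MDSC, 25 of 54 tested Fc pathway genes were called by edgeR, 22 with the larger value in TAM and 3 with the smaller, where 24.9% of all genes were called. Clec4e, the Mincle receptor gene, differed by 0.94 on the log2 scale, with 0.49 in TAM and -0.42 in MDSC, and the kinase gene Lyn by 0.73, with 0.31 and -0.39. The MDSC values of both genes were not called.

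The marker lists not given above were also summed. In MDSC, immunoglobulin and plasma cell markers went from 3032 to 3944 CPM in Shp2f/f to 5266 to 7155 CPM in Shp2f/fLysMcre. Of these, 5 of 10 were called higher and 0 lower by edgeR. NK cell markers were at 13.01 to 13.13 and 24.3 to 24.8 CPM, with 1 of 5, Nkg7, called higher and 0 lower. Nkg7 was at 1.19 and Eomes at 0.90 on the log2 scale, while Ncr1 (-0.65), Klrb1c (-0.48) and Prf1 (-0.24) were negative. Dendritic cell markers were at 39.6 to 39.8 and 33.9 to 37.0 CPM, and T cell markers at 7.36 to 7.52 and 9.08 to 13.6 CPM. Endothelial markers were at 19.2 to 20.3 and 25.6 to 32.9 CPM, and red pulp macrophage markers at 97.7 to 117 and 142 to 206 CPM. In each of the dendritic cell, T cell, endothelial and red pulp macrophage lists, 0 of 4 tested markers were called by edgeR. In TAM, neutrophil markers were at 291 to 306 and 474 to 502 CPM, with 5 of 7 tested called higher and 0 lower. Monocyte markers were at 1458 to 1549 and 1942 to 2009 CPM. They went both ways, with 3 of 5 called higher and 2 lower, Ccr2 at -0.45 and Cx3cr1 at -0.40 on the log2 scale. Dendritic cell markers were at 12.5 to 13.8 and 9.51 to 9.93 CPM, with 3 of 4 tested called lower and 0 higher. Mast cell and basophil markers were at 49.4 to 57.7 and 71.4 to 85.7 CPM (Mcpt8 was at 0 in the 3 Shp2f/fLysMcre libraries). Of these, 1 of 3 tested was called higher and 0 lower. Fibroblast markers were at 127 to 137 and 133 to 144 CPM, with 1 of 4, Pdgfra, called lower and 0 higher. Red pulp macrophage markers were at 435 to 443 and 671 to 699 CPM, with 4 of 4 called higher.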
